A study of Mus musculus with 4 samples.

Results

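The collagen chains are the 40 gene names on the array that consist of Col, a type number, the letter a and a chain number. They were covered by 59 of 39429 probes and make up 40 of the 31896 gene names measured. Each chain was represented by its brightest probe over all arrays, and 13 chains had several probes. RNA of mouse 3D engineered muscle was measured on 4 single-colour arrays, with 1 array for each group. The groups were tissue stimulated by acute EPS for 30 min and taken 5 h later, its unstimulated counterpart at 5 h, tissue stimulated in the same way and taken at 0 min, and the unstimulated counterpart at 0 min. EPS is read here as electrical pulse stimulation, although the labels spell it electrical plus stimulation. The series title names hypoxia, whereas no sample label gives an oxygen condition, and the cells from which the tissue was built are not given in the sources used here. The labelling protocol names leukocytes as the source of RNA, while titles, the tissue field and the extraction protocol name engineered muscle.

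Collagens are secreted proteins whose chains wind around each other into a helix in which glycine recurs at a fixed step. Fibrillar types I, III and V form the load-bearing fibrils of the muscle's connective tissue, type IV forms the network of the basement membrane around each fibre, and type VI forms beaded filaments that link that membrane to the surrounding matrix. In muscle tissue most fibrillar collagen mRNA is made by fibroblasts, while muscle cells and fibroblasts both contribute to the basement membrane. Hydroxylases and chaperones of the secretory pathway prepare the chains, proteases outside the cell trim them, and lysyl oxidases cross-link them.

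The repeat of the helix can be read in the probes themselves. A run of at least 4 glycine codons (GGN) in steps of 9 bases was present in 4 of the 59 collagen probes (6.78%), against 39 of all 39429 probes (0.0989%). The probes with the repeat are printed here 5′ to 3′ on the gene's strand because they show the collagen repeat. Positions are on build mm9 from the array design, and the glycine codons of the run are in capitals. Most collagen probes lack the repeat, and most probes that have it belong to other gene names. Only the printed Col15a1 probe is the brightest of its chain, so levels of the other chains below come from probes without the repeat. The Col16a1 probe was well above background on 1 array and the Col15a1 probe on 2. Whether each lies in an exon or a UTR was not analysed here.
Col14a1 probe, chr15:55347733-55347792, plus strand: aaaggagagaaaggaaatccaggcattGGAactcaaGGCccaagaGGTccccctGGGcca
Col15a1 probe, chr4:47283786-47283845, plus strand: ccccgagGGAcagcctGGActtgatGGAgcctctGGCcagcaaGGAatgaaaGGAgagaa
Col16a1 probe, chr4:129756457-129756516, plus strand: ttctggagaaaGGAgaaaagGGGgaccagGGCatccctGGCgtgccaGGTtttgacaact
Col25a1 probe, chr3:130270497-130270556, plus strand: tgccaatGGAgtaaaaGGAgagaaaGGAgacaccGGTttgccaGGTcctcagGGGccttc

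A level is the log2 of a probe's processed signal minus the log2 of the 75th percentile of that signal on its array, so that 0 means a signal equal to that percentile. Levels are compared between arrays within a gene and never between genes, since probes differ in brightness at equal RNA. By their brightest probe, 30 chains were well above background on all 4 arrays, 3 on some arrays and 7 on none. The 7 were Col2a1, Col4a3, Col8a2, Col9a1, Col9a3, Col13a1 and Col19a1. A dimmer probe of Col8a2 was well above background on the EPS 0 min array alone, with levels of -8.23 at 5 h after EPS, -7.16 at 5 h without EPS, -3.93 at 0 min after EPS and -7.16 at 0 min without EPS. With 1 array per group the spread between tissues is unknown, so no difference was tested and no p-value is given, and group, tissue and array cannot be told apart. A difference of at least 2-fold between genes well above background on both arrays was the size rule. The only measured error was that of spots: among probes printed 10 times on each array, the median SD of a log2 difference between 2 arrays was 0.08. Its 95th percentile was 0.30 for EPS at 5 h, 0.29 for EPS at 0 min, 0.26 for time after EPS and 0.33 for time without EPS. It was larger for dim probes, with a 95th percentile of 0.46 for levels under -3 and 0.10 for levels of 0 and over in the EPS comparison at 5 h. On the whole array, the 75th percentile of the signal lay between 1093 and 1492, and 19164 to 19423 genes were well above background.

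The markers listed for skeletal muscle were well above background on every array for 11 of 12 genes, the exception being Myf5, and those for fibroblasts for 8 of 10, the exceptions being Tcf21 and Thy1. Among the leukocyte markers, Itgam, Cd3e and Cd68 were well above background on every array, Itgam with levels of 2.52 at 5 h after EPS, 2.69 at 5 h without EPS, 2.80 at 0 min after EPS and 2.93 at 0 min without EPS. Adgre1 reached that mark on 2 arrays, and Ptprc and Lyz2 on none. Of 6 endothelial markers, the same held for Cdh5, Tek and Tie1.

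The median difference of the collagen chains lay further from 0 with time than with EPS. At 5 h most chains had lower levels than at 0 min, both after EPS and without EPS, with Col1a1, Col1a2, Col6a1 and Col6a2 1.29-fold to 1.74-fold lower. By sign, the exceptions were the basement membrane pair Col4a1 and Col4a2 and the anchoring fibril chain Col7a1, the 3 chains slightly higher at 5 h in both comparisons. The Col4a2 differences (0.08 after EPS and 0.07 without EPS) and that of Col4a1 without EPS (0.06) were within the spot error. The 95th percentile of that error for levels of 0 and over was 0.11 after EPS and 0.12 without EPS. EPS itself went with differences in both directions, most of them small, although the widest of any measured chain was an EPS difference, that of Col27a1 at 5 h.

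**Figure D1:**
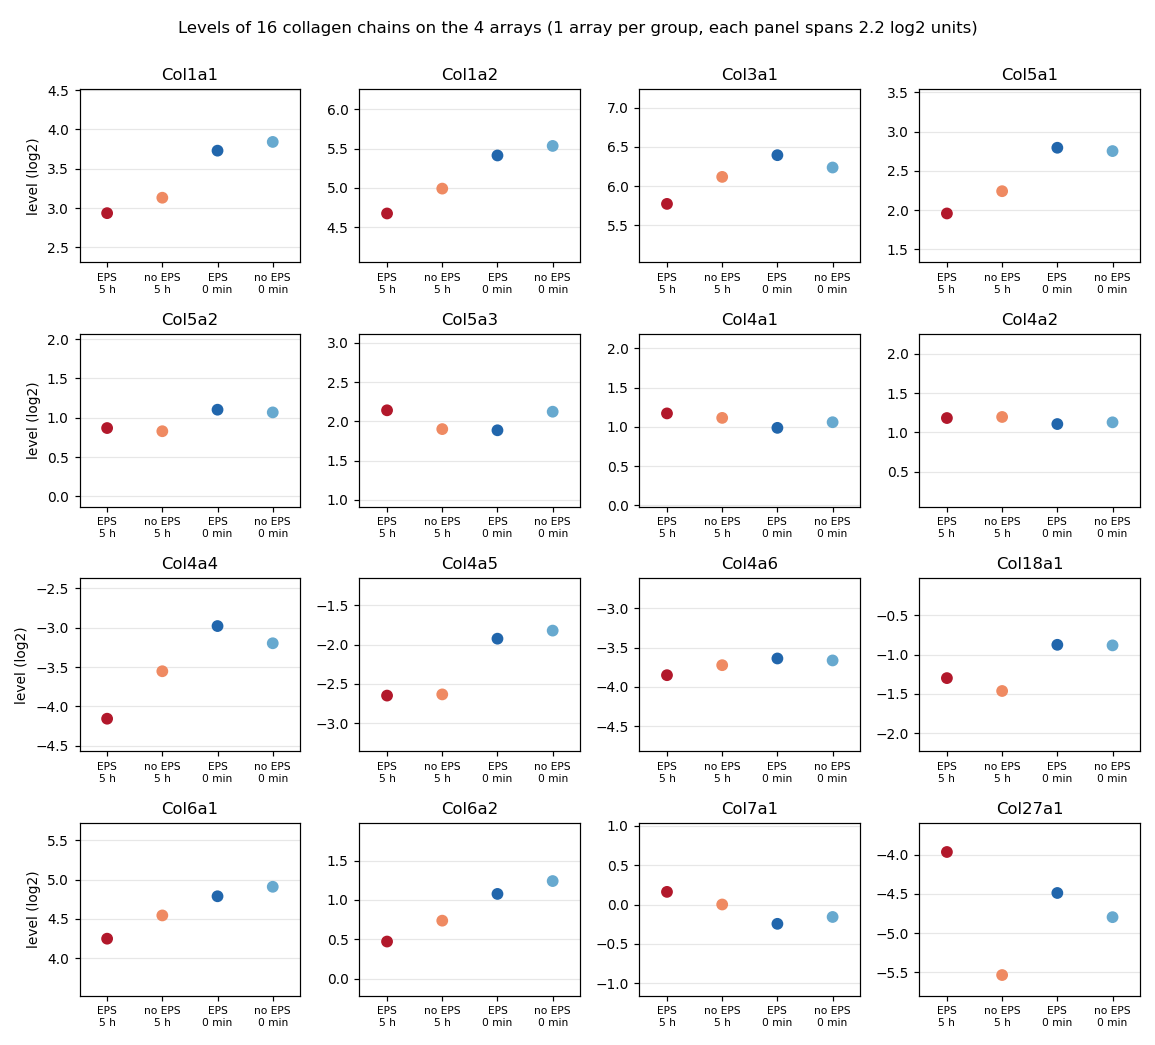
Level (log2 of the signal over the array's 75th percentile) of 16 chains on each of the 4 arrays, 1 point per array and no replicate. Each panel spans 2.2 log2 units around its own gene, so heights can be compared across panels but levels only within a panel. In the Col1a1, Col1a2, Col6a1 and Col6a2 panels both 5 h points lie below both 0 min points, whereas the Col4a1 and Col4a2 points lie nearly level.

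The fibrillar chains come first, by abundance in connective tissue. Col1a1, the major chain of type I collagen, had levels of 2.93 at 5 h after EPS, 3.13 at 5 h without EPS, 3.73 at 0 min after EPS and 3.84 at 0 min without EPS. Col1a2, its partner in the same molecule, had 4.67 at 5 h after EPS, 4.99 at 5 h without EPS, 5.41 at 0 min after EPS and 5.53 at 0 min without EPS. Both genes were lower on both 5 h arrays than on both 0 min arrays, and on the EPS array than on the no-EPS array at each time. After EPS the 5 h minus 0 min difference was -0.80 for Col1a1 and -0.74 for Col1a2, sizes of 1.74-fold and 1.67-fold. Without EPS it was -0.71 and -0.54 for these genes. The EPS minus no EPS difference at 5 h was -0.20 for Col1a1 and -0.32 for Col1a2, and at 0 min it was -0.11 and -0.12.

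Col3a1, the chain of type III collagen that forms fine fibrils with type I, had levels of 5.77 at 5 h after EPS, 6.12 at 5 h without EPS, 6.39 at 0 min after EPS and 6.24 at 0 min without EPS. Its lowest level was that at 5 h after EPS and its highest that at 0 min after EPS. The 5 h minus 0 min difference was therefore -0.62 after EPS and -0.12 without EPS, the second with a sign that turned to 0.01 under median centring of the arrays.

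Type V chains set the diameter of type I fibrils. Col5a1 had levels of 1.96 at 5 h after EPS, 2.24 at 5 h without EPS, 2.79 at 0 min after EPS and 2.75 at 0 min without EPS. The 5 h levels were the lower ones, with differences from 0 min of -0.84 after EPS and -0.51 without EPS. Col5a2 differed less, with 0.87 at 5 h after EPS, 0.83 at 5 h without EPS, 1.10 at 0 min after EPS and 1.07 at 0 min without EPS. Col5a3 had 2.14 at 5 h after EPS, 1.90 at 5 h without EPS, 1.89 at 0 min after EPS and 2.12 at 0 min without EPS. Here the arrays of one time did not sit together: the EPS minus no EPS difference of Col5a3 was 0.24 at 5 h and -0.24 at 0 min. After EPS, the 5 h minus 0 min difference was -0.84 for Col5a1 and 0.25 for Col5a3, which can join in 1 type V molecule.

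Col24a1, a minor fibrillar chain known from developing bone, had low levels of -4.66 at 5 h after EPS, -4.57 at 5 h without EPS, -3.57 at 0 min after EPS and -3.69 at 0 min without EPS (probe at chr3:145214473-145214532, plus strand, mm9). It was 2.12-fold lower at 5 h than at 0 min after EPS, and 1.84-fold lower without EPS. Col27a1, a fibrillar chain known from cartilage, had -3.97 at 5 h after EPS, -5.53 at 5 h without EPS, -4.49 at 0 min after EPS and -4.80 at 0 min without EPS (probe at chr4:62995485-62995544, plus strand, mm9). The processed signals behind these levels were 95.3 at 5 h after EPS, 27.6 at 5 h without EPS, 48.7 at 0 min after EPS and 49.0 at 0 min without EPS. The low point was thus the array at 5 h without EPS, and the high point that at 5 h after EPS. Col27a1 was 2.96-fold higher with EPS than without at 5 h (1.57 on the log2 scale) and 1.24-fold higher at 0 min. This rests on 1 dim probe with 1 spot per array, and the difference at 5 h was 0.54 after normexp background correction, against 1.57 with the processed signal.

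Col11a2, a chain of type XI collagen, had levels of -4.87 at 5 h after EPS, -5.11 at 5 h without EPS, -4.80 at 0 min after EPS and -5.45 at 0 min without EPS. Its EPS difference at 0 min, 0.66, was the highest among the chains measured in that comparison. Col11a1 was well above background on every array but that at 5 h without EPS. By a bound, it was 1.22-fold higher at 5 h with EPS than without, and 1.34-fold lower at 5 h than at 0 min without EPS. Such a bound takes, for the dim array, the lowest level that any probe well above background had there. Where the chain's own level is higher, it takes that level. It leaves out spot error, and its direction is set by which array passed the filter. On the log2 scale the Col11a1 bounds were 0.29 and 0.42. The 95th percentile of the spot error for levels under -3 was larger, at 0.46 and 0.47.

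Over the whole fibrillar class, 8 of the 9 chains measured were below 0 in the 5 h minus 0 min difference without EPS, with a median of -0.51. After EPS, 7 of 10 were below 0, with a median of -0.43. Among all genes measured, 52.5% were below 0 in the comparison without EPS (median -0.02) and 57.5% in that after EPS (median -0.08).

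Basement membrane chains fell into 2 patterns. Col4a1 and Col4a2 form the common type IV network. Col4a1 had levels of 1.17, with an SD over spots of 0.05 from 9 spots, at 5 h after EPS and 1.12 ± 0.03 (9 spots) at 5 h without EPS. At 0 min it had 0.99 ± 0.05 after EPS and 1.06 ± 0.09 without EPS (10 spots each). These SDs describe 1 labelled RNA on 1 array, and Col4a1 was the only chain with a probe printed more than once. Col4a2 had 1.18 at 5 h after EPS, 1.20 at 5 h without EPS, 1.11 at 0 min after EPS and 1.13 at 0 min without EPS. The widest difference of Col4a1 between arrays was 0.18, at 5 h minus 0 min after EPS. In every comparison the differences of these genes were within 0.12 of each other.

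Col4a5, a chain of the networks found in kidney and around some muscle structures, had levels of -2.65 at 5 h after EPS, -2.63 at 5 h without EPS, -1.92 at 0 min after EPS and -1.82 at 0 min without EPS. The 5 h arrays were the lower ones, with differences from 0 min of -0.72 after EPS and -0.81 without EPS. Col4a6, which pairs with Col4a5 in the network of smooth muscle, had -3.85 at 5 h after EPS, -3.72 at 5 h without EPS, -3.64 at 0 min after EPS and -3.66 at 0 min without EPS. Its 5 h minus 0 min difference was -0.21 after EPS and -0.06 without EPS, the second turning to 0.07 under median centring. A dimmer probe of Col4a6 gave -1.78 after EPS and -0.76 without EPS, the direction of Col4a5. That probe was well above background on the EPS 0 min array alone.

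Col4a4 belongs to the mature kidney network with Col4a3 and Col4a5. It had levels of -4.16 at 5 h after EPS, -3.55 at 5 h without EPS, -2.98 at 0 min after EPS and -3.20 at 0 min without EPS (probe at chr1:82515563-82515622, minus strand, mm9). After EPS it was 2.27-fold lower at 5 h than at 0 min. A second probe of Col4a4, also well above background on all arrays, gave -0.42 for that comparison, against -1.18 for the brightest probe.

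Col18a1, the basement membrane chain whose end fragment is endostatin, had levels of -1.30 at 5 h after EPS, -1.46 at 5 h without EPS, -0.87 at 0 min after EPS and -0.88 at 0 min without EPS. Its 5 h levels were the lower ones in both comparisons. Col15a1, its relative in the membrane of muscle and vessels, was well above background on the 0 min arrays alone. Its signals there were 22.9 after EPS and 29.2 without EPS, by the probe with the repeat printed above. Its other probes were well above background on no array. By the bound, it was 1.73-fold lower at 5 h than at 0 min after EPS and 1.66-fold lower without EPS. Over the class, 4 of 6 chains measured were below 0 in each time comparison, with medians of -0.32 after EPS and -0.21 without EPS.

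The type IV genes lie in head-to-head pairs. In RefSeq (GRCm38.p6) the starts of Col4a1 and Col4a2 are 21 bases apart and those of Col4a5 and Col4a6 are 1343 bases apart. The upstream sequences of Col4a5 and Col4a6 are shown here because this pair differed in level with time by the brightest probe of each gene. The dimmer Col4a6 probe near background did not show that contrast. Beside them stand those of Col1a2, a type I chain lower at 5 h, and Col27a1, the chain with the widest EPS difference. Those of Col4a1 and Col4a2 each lie inside the other gene of the pair and are not shown. Each line holds the 200 bases before a gene's start, 5′ to 3′ on that gene's strand, with the letters CCAAT or their reverse complement ATTGG in capitals.
Col1a2 upstream, chr6:4505418-4505617, plus strand: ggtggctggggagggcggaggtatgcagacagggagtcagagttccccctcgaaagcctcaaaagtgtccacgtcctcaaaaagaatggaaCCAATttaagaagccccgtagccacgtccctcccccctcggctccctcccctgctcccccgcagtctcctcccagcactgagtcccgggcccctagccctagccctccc
Col4a5 upstream, chrX:141475219-141475418, plus strand: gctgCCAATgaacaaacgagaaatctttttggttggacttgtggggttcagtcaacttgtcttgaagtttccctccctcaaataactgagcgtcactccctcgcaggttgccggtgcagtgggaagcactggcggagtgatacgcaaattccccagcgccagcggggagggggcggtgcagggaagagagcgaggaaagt
Col4a6 upstream, chrX:141474077-141474276, minus strand: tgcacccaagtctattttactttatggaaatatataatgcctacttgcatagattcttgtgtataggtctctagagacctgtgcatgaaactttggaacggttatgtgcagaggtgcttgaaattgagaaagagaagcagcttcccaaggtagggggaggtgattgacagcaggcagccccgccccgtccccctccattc
Col27a1 upstream, chr4:63215212-63215411, plus strand: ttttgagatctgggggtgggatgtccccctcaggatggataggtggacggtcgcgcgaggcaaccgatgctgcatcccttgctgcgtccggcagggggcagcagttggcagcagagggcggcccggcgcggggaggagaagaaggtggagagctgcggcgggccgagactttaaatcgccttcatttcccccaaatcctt

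CCAAT, the recognition letters of the factor NF-Y, was found in the Col1a2, Col4a1, Col4a2 and Col4a5 windows and not in those of Col4a6 and Col27a1. Searched on both strands, it was present in 10 of 35 promoters of 32 chains, against 29.3% of all 32851 promoters in the table over the same window. GGGCGG, the letters of a GC box, was in 20 of the 35, against 31.0% of all promoters. TATAAA was in 4 of the 35, against 9.96% of all. These matches are letters in a window and were not tied to any difference in level.

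By the brightest probe of each gene, the pairs differed in the time comparisons and not clearly in those of EPS. Without EPS the 5 h minus 0 min difference was 0.06 for Col4a1 and 0.07 for Col4a2, whereas it was -0.81 for Col4a5 and -0.06 for Col4a6. After EPS it was 0.18 and 0.08 for the first pair and -0.72 and -0.21 for the other. With EPS at 5 h the differences were 0.06 for Col4a1 and -0.01 for Col4a2, and -0.02 for Col4a5 and -0.13 for Col4a6. At 0 min they were -0.07 and -0.02 for the first pair and -0.10 and 0.03 for the other.

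The type VI chains Col6a1 and Col6a2 were alike, and Col6a6 was not. Col6a1, which like Col6a2 is part of the beaded filament whose loss causes muscle disease in people, had levels of 4.25 at 5 h after EPS, 4.54 at 5 h without EPS, 4.79 at 0 min after EPS and 4.91 at 0 min without EPS. Col6a2 had 0.47 at 5 h after EPS, 0.74 at 5 h without EPS, 1.08 at 0 min after EPS and 1.24 at 0 min without EPS. The order of the arrays was the same for both genes and for Col1a1 and Col1a2. After EPS the 5 h minus 0 min difference was -0.54 for Col6a1 and -0.61 for Col6a2. Without EPS it was -0.36 and -0.50. Col6a6 was well above background on the array at 5 h after EPS alone, where its signal was 27.8. By the bound, it was 1.44-fold higher there than at 5 h without EPS and 1.38-fold higher than at 0 min after EPS. On the log2 scale these bounds were 0.53 and 0.46. The 95th percentile of the spot error for levels under -3 was 0.46 in both comparisons.

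Among fibril-associated chains, which coat fibrils, Col14a1 had levels of 1.61 at 5 h after EPS, 1.91 at 5 h without EPS, 2.12 at 0 min after EPS and 1.96 at 0 min without EPS. The array at 5 h after EPS was the lowest, and a second probe gave -0.44 for the 5 h minus 0 min difference after EPS, against -0.51 for the brightest. Col22a1, a chain of the muscle-tendon junction, had -2.07 at 5 h after EPS, -1.89 at 5 h without EPS, -1.50 at 0 min after EPS and -1.33 at 0 min without EPS. Its differences with time, -0.57 after EPS and -0.56 without EPS, were nearly the same. Col12a1 had 1.56 at 5 h after EPS, 1.44 at 5 h without EPS, 1.93 at 0 min after EPS and 1.70 at 0 min without EPS, and Col16a1 had 0.83 at 5 h after EPS, 0.86 at 5 h without EPS, 1.27 at 0 min after EPS and 1.10 at 0 min without EPS. Of the 6 chains of this class measured on all arrays, Col12a1, Col14a1, Col16a1 and Col22a1 were lower at 5 h in both comparisons, and Col9a2 and Col20a1 had mixed signs.

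Col8a1, a short chain that forms networks around vessels and in the eye, had levels of -0.998 at 5 h after EPS, -0.86 at 5 h without EPS, -0.46 at 0 min after EPS and -0.40 at 0 min without EPS. Both 5 h arrays were below both 0 min arrays, with differences of -0.54 after EPS and -0.46 without EPS. The membrane-spanning chain Col23a1 had -3.48 at 5 h after EPS, -3.54 at 5 h without EPS, -3.40 at 0 min after EPS and -3.30 at 0 min without EPS, and its differences with time were -0.07 after EPS and -0.24 without EPS.

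Col7a1, the chain of the anchoring fibrils that fix epithelial basement membranes, went the other way. It had levels of 0.16 at 5 h after EPS, 0.00 at 5 h without EPS, -0.25 at 0 min after EPS and -0.16 at 0 min without EPS. Both 5 h arrays were above both 0 min arrays, by 0.41 after EPS and 0.16 without EPS.

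The membrane-spanning chain Col25a1, needed in mice for motor nerves to reach muscle, had levels of -5.46 at 5 h after EPS, -4.45 at 5 h without EPS, -4.65 at 0 min after EPS and -4.01 at 0 min without EPS (probe at chr3:130299222-130299281, plus strand, mm9). It was lower with EPS than without at both times, with differences of -1.02 at 5 h and -0.63 at 0 min. A second probe that was well above background on all arrays gave -0.32 at 5 h and -0.31 at 0 min, the same sign with a smaller size. The remaining probes were well above background on all arrays but that at 5 h after EPS. They gave -0.33 and -0.85 at 0 min, and -1.53 and -1.12 at 5 h, where the array after EPS was near background. Col17a1, a membrane-spanning chain of epithelial anchoring plaques, had -5.19 at 5 h after EPS, -5.60 at 5 h without EPS, -4.92 at 0 min after EPS and -5.41 at 0 min without EPS. It was higher with EPS at both times, by 0.40 at 5 h and 0.49 at 0 min, but by 0.028 at 5 h after normexp background correction.

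**Figure D2:**
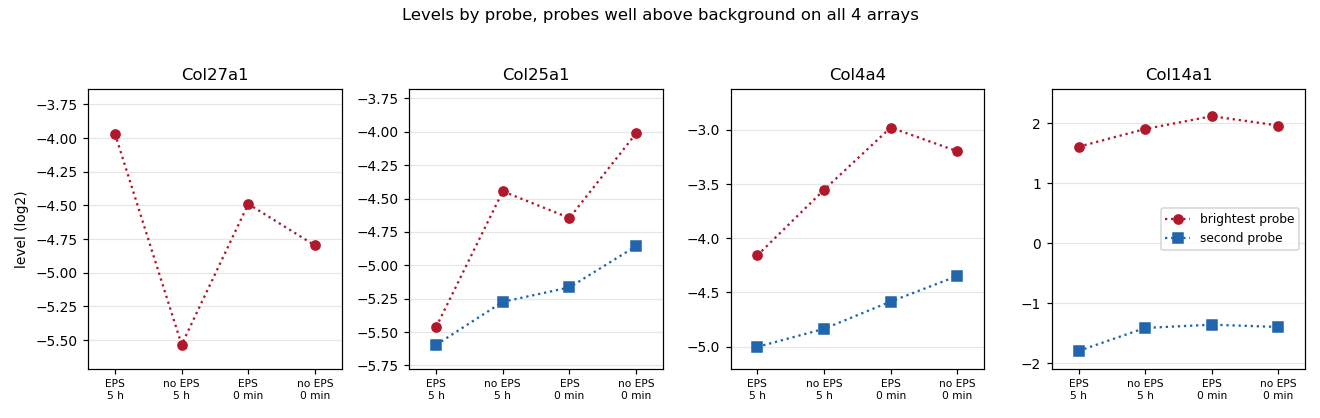
Levels (log2) of 4 chains on each array by probe, for probes well above background on all 4 arrays. Circles are the brightest probe and squares the next such probe, and dotted lines join the arrays for legibility only. Col27a1 has 1 probe, the Col25a1 and Col4a4 probes differ in the size of the drop at 5 h after EPS, and the Col14a1 probes both have their lowest point there.

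Where chains had several probes well above background on all arrays, the probes could be compared. For 7 such chains and 4 comparisons, 26 of 28 differences had the same sign in all probes. The exceptions were Col20a1 in time without EPS and Col4a4 in EPS at 0 min.

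Across all types, EPS at 5 h was measured for 30 chains. At least 2-fold higher was Col27a1 alone, against 0.69% of all genes measured in that comparison, and at least 2-fold lower was Col25a1 alone, against 0.523%. The size of Col25a1 fell short of 2-fold with normexp (-0.54), quantile normalization, median centring, the mean of its probes and centring on the median of all genes. Of the 30 chains, 17 were below 0, against 56.6% of all genes, and the median was -0.02 for the chains and -0.03 for all genes. The median of the chains turned to 0.07 under median centring, so no direction can be given for the family as a whole. After Col27a1 the chains furthest up were Col20a1 (0.57, fibril-associated, but 0.086 with normexp) and Col17a1 (0.40), and after Col25a1 those furthest down were Col4a4 (-0.60) and Col3a1 (-0.34). Col20a1 had levels of -4.46 at 5 h after EPS, -5.04 at 5 h without EPS, -4.81 at 0 min after EPS and -4.97 at 0 min without EPS.

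Of the 13 chains with a mean level of 0 or more, 9 were below 0 in this comparison, with a median of -0.20, against 4449 of 8253 genes of such a level, with a median of -0.02. Of the 17 dimmer chains measured, 8 were below 0, with a median of 0.05. Among dimmer genes as a whole, 6051 of 10290 were below 0, with a median of -0.06. The lower ones among the brighter chains included Col1a1, Col1a2, Col3a1, Col5a1, Col6a1, Col6a2 and Col14a1, at -0.20 to -0.34. This split by level was chosen after the values were seen.

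At 0 min, directly after EPS, 32 chains were measured and none reached 2-fold, against 0.549% of all genes higher and 0.791% lower. Of the 32, 16 were below 0, against 45.5% of all genes. The medians were -0.01 for the chains and 0.02 for all genes. Furthest up were Col11a2 (0.66), Col17a1 (0.49) and Col28a1 (0.31), and furthest down were Col25a1 (-0.63), Col10a1 (-0.26) and Col5a3 (-0.24). Col28a1, a chain of peripheral nerve, had levels of -5.52 at 5 h after EPS, -5.29 at 5 h without EPS, -4.98 at 0 min after EPS and -5.29 at 0 min without EPS. Col10a1, the chain of hypertrophic cartilage, had -3.61 at 5 h after EPS, -3.85 at 5 h without EPS, -3.53 at 0 min after EPS and -3.27 at 0 min without EPS.

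**Figure D3:**
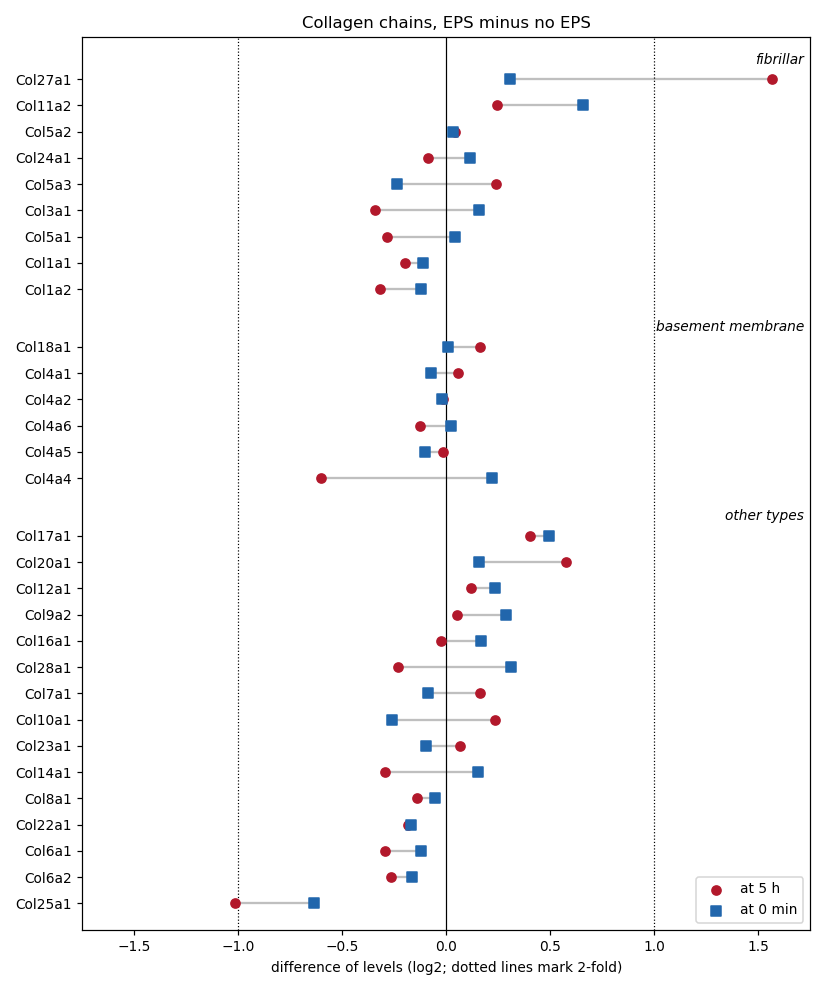
EPS minus no EPS difference of levels (log2) for the 30 chains well above background on all 4 arrays, by type, at 5 h (red circles) and at 0 min (blue squares), with 2-fold marked by dotted lines. Most points lie within 0.3 of 0 at both times, and Col27a1 at 5 h (1.57) and Col25a1 at 5 h (-1.02) lie beyond the dotted lines.

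Beyond the spot error limit of 0.30, Col17a1, Col20a1 and Col27a1 were higher with EPS at 5 h, 3 chains against 7.25% of all genes. Col1a2, Col3a1, Col4a4 and Col25a1 were lower, 4 chains against 13.2% of all genes. At 0 min, where the limit was 0.29, Col11a2, Col17a1, Col27a1 and Col28a1 were higher, 4 chains against 8.63% of all genes, and Col25a1 was lower, 1 chain against 11%. The limit concerns spots of 1 RNA and says nothing of the spread between tissues. With a limit taken within classes of level, chosen after values were seen, 6 chains were higher (18.4% of all genes) and 10 lower (25.4%) with EPS at 5 h. At 0 min 5 were higher (23.4%) and 6 lower (16.8%). For levels under -3 this limit was 0.46 at 5 h and 0.51 at 0 min. Col17a1 lay within it at 5 h, and Col17a1, Col27a1 and Col28a1 lay within it at 0 min.

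The difference of the EPS effects, that at 5 h minus that at 0 min, was at least 2-fold for 1 of 30 chains, Col27a1 (1.26), against 1% of all genes higher, and for no chain lower, against 0.994%. It was below 0 for 19 of 30 chains, against 58.1% of all genes, with medians of -0.10 for the chains and -0.04 for all genes.

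The medians lay further from 0 in the time comparisons. After EPS, 5 h minus 0 min was measured for 31 chains, of which 24 were below 0. Col4a4 and Col24a1 were at least 2-fold lower, against 3.65% of all genes, and no chain was at least 2-fold higher, against 2.4%. Both fell short of 2-fold with normexp (-0.82 for Col4a4 and -0.69 for Col24a1) and with median centring, Col24a1 also with quantile normalization and Col4a4 also with the mean of its probes. The median was -0.42 for the chains and -0.08 for all genes. Beyond the spot limit of 0.26, 18 chains were lower (33% of all genes) and 3, Col7a1, Col20a1 and Col27a1, were higher (21.5% of all genes). With the limit by class of level, 18 were lower (39.2%) and 4, Col4a1, Col5a3, Col7a1 and Col27a1, were higher (28.1%).

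Without EPS, 30 chains were measured, 25 were below 0 and none reached 2-fold, against 1.74% of all genes higher and 2.96% lower. The median was -0.25 for the chains and -0.02 for all genes. Beyond the spot limit of 0.33, 14 chains were lower (20.8% of all genes) and 1, Col11a2, was higher (15.5% of all genes). With the limit by class of level, 16 were lower (30.9%) and 1, Col7a1, was higher (28.6%). Of the 30 chains measured on all arrays, 22 (73.3%) were lower at 5 h in both time comparisons, against 8011 of 18105 genes (44.2%). In both, 3 chains were higher, Col4a1, Col4a2 and Col7a1, and 5 had mixed signs, Col5a3, Col9a2, Col11a2, Col20a1 and Col27a1. These counts describe pairs of arrays, and the comparisons share arrays with those of EPS.

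**Figure D4:**
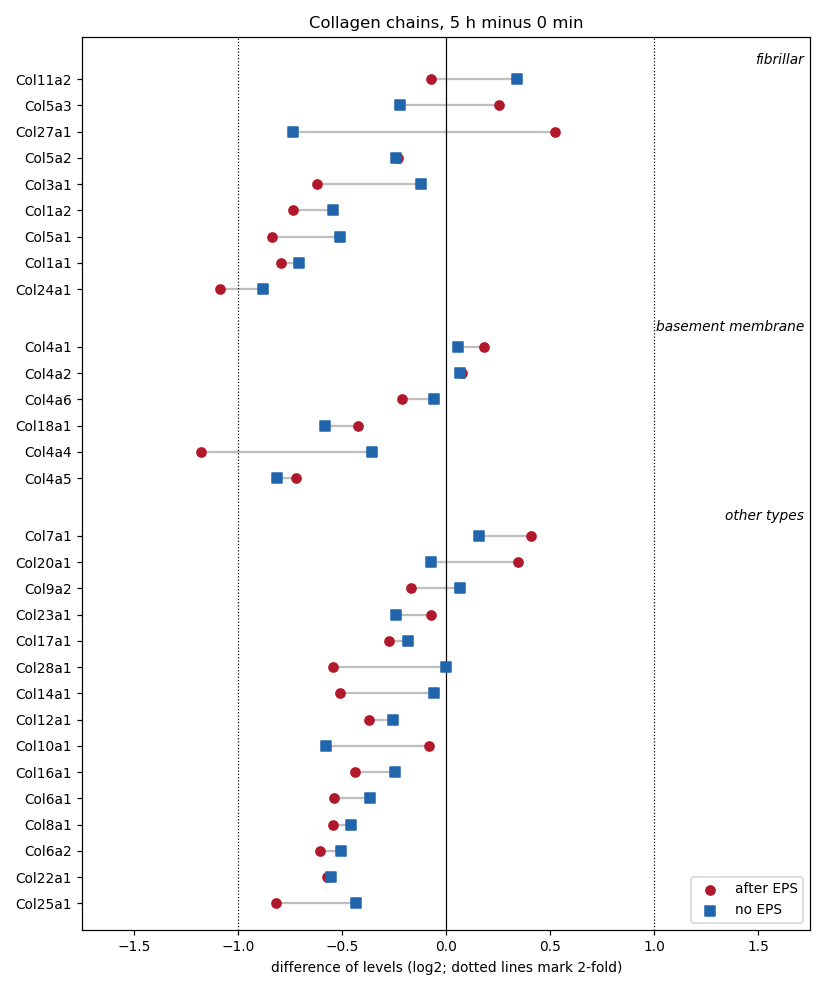
Difference of levels (log2), 5 h minus 0 min, for the 30 chains well above background on all 4 arrays, by type, after EPS (red circles) and with no EPS (blue squares), with 2-fold marked by dotted lines. Most chains lie left of 0 in both, Col24a1 (-1.09) and Col4a4 (-1.18) after EPS lie beyond the dotted line, and Col4a1, Col4a2 and Col7a1 lie right of 0 in both.

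**Figure D5:**
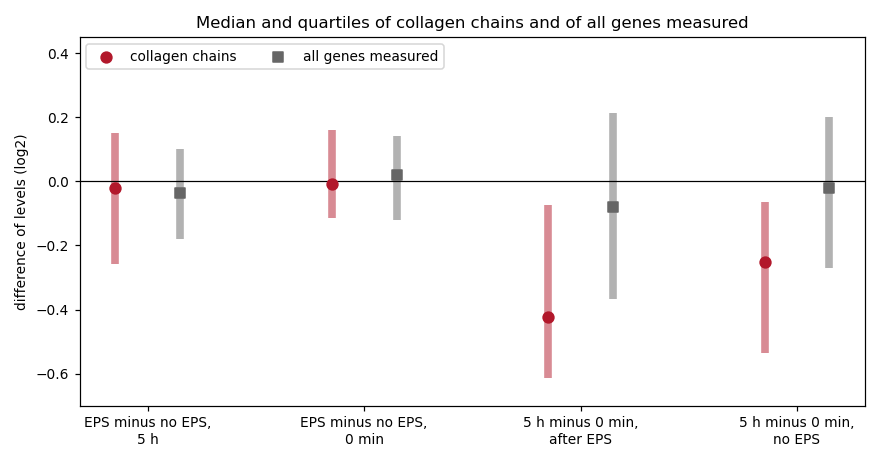
Median (points) and quartiles (bars) of the differences of levels (log2), for the collagen chains (red) and for all genes measured (grey) in each comparison. The chains' medians lie at -0.42 and -0.25 in the time comparisons, below those of all genes at -0.08 and -0.02, and close to those of all genes in the EPS comparisons.

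For the other genes of the pathway, counts below 0 with time stand against 57.5% of all genes after EPS and 52.5% without EPS, and those for EPS at 5 h against 56.6%. Of 19 hydroxylases and chaperones measured, 14 were below 0 in 5 h minus 0 min after EPS (median -0.21) and 15 without EPS (median -0.12). P4ha2, a subunit of the prolyl hydroxylase that stabilises the helix, was the only one at 2-fold, with -1.01 after EPS. With EPS at 5 h the medians of this list and of all genes were -0.01 and -0.03, and its widest differences were P3h2 (0.31), Plod2 (-0.30) and P4ha3 (-0.26). At 0 min they were P3h2 (0.42), P4ha2 (0.25) and Serpinh1 (0.25), the last being the chaperone specific to collagen.

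Of 11 genes measured for processing and cross-linking, all 11 were below 0 in time without EPS (median -0.21) and 10 in time after EPS (median -0.55). With EPS at 5 h, 7 of 11 were below 0 (median -0.11), with Loxl1 at -0.41, Loxl3 at -0.38 and Pcolce at -0.30. At 0 min the widest were Tll1 (0.45), Loxl2 (0.25) and Lox (0.22), and the median was 0.05. Loxl1 is a lysyl oxidase and Pcolce helps to remove the end of fibrillar procollagen.

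Of 15 basement membrane partners, 13 were below 0 in each time comparison, with medians of -0.25 after EPS and -0.19 without EPS. Nid1, which links laminin to type IV collagen, was the exception in size, with levels of 4.84 at 5 h after EPS, 4.90 at 5 h without EPS, 2.86 at 0 min after EPS and 2.76 at 0 min without EPS. Lama1, a laminin chain of early basement membranes, was the reverse, with -5.96 at 5 h after EPS, -5.60 at 5 h without EPS, -3.32 at 0 min after EPS and -3.46 at 0 min without EPS. Nid1 and Lama1 were the only partners at 2-fold with time, and they are named because of these values. With EPS at 5 h, Lama4 was at -0.78 and Lama1 at -0.36. The widest EPS differences at 0 min were Lamc1 (0.23), Nid2 (0.19) and Lama4 (-0.18).

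Collagen receptors had medians near 0 in all comparisons, from -0.05 to 0.06, with 8 of 11 measured. Cspg4 (0.60) and Lair1 (-0.57) were furthest at 5 h with EPS, and Itga10 (-0.52) and Itga11 (0.37), both alpha chains of collagen-binding integrins, at 0 min. Small proteoglycans and matrix partners had 13 of 15 below 0 after EPS with time (median -0.40) and 12 of 15 below 0 with EPS at 5 h (median -0.16), where Tnxb, a tenascin of connective tissue, was at -1.84. The Tnxb levels were low, at -5.89 after EPS and -4.05 without EPS at 5 h, and -5.90 and -6.37 at 0 min. It was not well above background on 1 of the 4 arrays, that at 0 min without EPS. The array at 5 h without EPS stood apart, and the 5 h minus 0 min difference after EPS was 0.01. Aspn, which binds collagen, was the only one of this list at 2-fold with time among those measured, at -1.06 after EPS and -1.19 without EPS. Tnxb was not measured in time without EPS.

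Markers of the cells that could carry these chains differed between arrays as well. Among the 8 fibroblast markers measured, 7 were below 0 with EPS at 5 h (median -0.30), against 56.6% of all genes. In time after EPS, 7 were below 0 (median -0.58), against 57.5% of all genes. In time without EPS, 5 were below 0 (median -0.13), against 52.5% of all genes. The summed fibroblast markers, on the level scale, came to 7.92 at 5 h after EPS, 8.17 at 5 h without EPS, 8.38 at 0 min after EPS and 8.23 at 0 min without EPS. The summed muscle markers came to 9.09 at 5 h after EPS, 9.12 at 5 h without EPS, 9.43 at 0 min after EPS and 9.28 at 0 min without EPS. Pdgfrb, a receptor of fibroblasts and pericytes, had the widest differences with time among the fibroblast markers. At 5 h its level was 0.20 after EPS and 1.07 without EPS, and at 0 min it was 2.63 and 2.84. Pdgfra went the other way, with 5 h minus 0 min differences of 0.46 after EPS and 0.72 without EPS. Dpt and Dcn were also higher at 5 h without EPS, by 0.29 and 0.04. The summed endothelial markers, of which 3 of 6 were well above background, came to 0.99 at 5 h after EPS, 1.58 at 5 h without EPS, 1.81 at 0 min after EPS and 1.69 at 0 min without EPS. The fibroblast and muscle sums were lower on the 5 h arrays, as were most collagen chains. Each sum adds linear signals of different probes, so the brightest probes weigh most. At 5 h without EPS, Dcn (7.45) and S100a4 (6.67) stood against a fibroblast sum of 8.17. Kdr (1.52) stood against an endothelial sum of 1.58 there. Without EPS the fibroblast sums, 8.17 and 8.23, were close. Median centring moved the median of all genes in that comparison from -0.02 to 0.11. The part of cell makeup in the chains' differences was not tested. Fewer cells of a type and less RNA per cell cannot be told apart in these bulk samples.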

How the data were processed

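Total RNA from 4 samples of mouse 3D engineered muscle was hybridised to single-colour Agilent arrays, 1 array per group. Per the file headers, the authors' scanner files hold spot intensity from Agilent Feature Extraction 10.7.3.1, with background subtracted, and the deposited value table holds the same intensity: all 44397 values on each array were equal to the processed signal within a relative tolerance of 1e-05. Levels are log2 values computed from that intensity. Spots flagged as outliers (112 to 141 per array) were left out, and replicate spots of a probe were averaged on the log2 scale. Control spots were excluded, and no spot was saturated. Names were taken from the array files, and 26055 probes were matched to RefSeq. The number of arrays limits the precision.

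The members and lists were chosen with earlier results of these data known. Genes of the other lists are named where they were among the 3 largest EPS differences at a time, or reached 2-fold with time. Pdgfra, Dpt and Dcn are named because they went against Pdgfrb with time. Some genes of these lists are not reported here. The chain pairs set side by side, the sequences printed, the letters and the repeat searched, the window and the split by level were chosen after values or sequences were seen. No test between groups was possible with 1 array per group. Alternatives were normexp background correction with an offset of 50, quantile normalization (limma 3.58.1 in R 4.3.3), median centring, other filters on dim probes, the mean of the measured probes and the value table. Tables were handled with pandas 2.3.3 in Python 3.11.15.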

Additional observations from a re-analysis of the deposited data

How the results depend on the processing

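No paired analysis was possible because each group has 1 array, and leaving out a replicate would empty a group. The 2 time comparisons kept the sign of their chain medians in all 8 settings tried. The median lay between -0.45 and -0.24 after EPS and between -0.29 and -0.12 without EPS. Among these settings, the deposited value table equals the processed signal, so its result was fixed in advance. The filter on all 4 arrays left the same 30 chains in time without EPS. With the filter on dim probes, 20 to 27 chains were below 0 after EPS and 20 to 25 without EPS, depending on the setting. Median centring moved the median of all genes by over 0.1, to 0.10 after EPS and 0.11 without EPS, and put that of the chains at -0.24 and -0.12. Relative to the median of all genes, the chains' medians were -0.34 and -0.23. It also gave a chain median of 0.066 for EPS at 5 h, where normexp gave -0.14.

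The 2-fold counts were less stable. With normexp there were 0 chains higher and 0 lower for EPS at 5 h, 0 lower in time after EPS and 0 higher in the difference of EPS effects, and Col27a1 was at 0.54 for EPS at 5 h and 0.25 for that difference. For EPS at 5 h, 0 chains were lower also with quantile normalization, median centring, the mean of the measured probes and centring on the median of all genes measured, a setting added after the data were seen. In time after EPS, 1 chain was lower with quantile normalization and with the mean of the probes, and 0 with median centring. Without the filter, there were 3 chains higher for EPS at 5 h, 1 lower in time without EPS, 1 higher and 4 lower in time after EPS, and 3 higher and 1 lower in the difference of EPS effects. Values of dim probes without the filter are at or near background. The cause of the other changes was not tested.

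Over all genes, normexp gave 43 higher and 31 lower for EPS at 5 h, against 128 and 97 with the processed signal, 42 and 29 at 0 min against 102 and 147, 186 and 226 in time without EPS against 322 and 547, 256 and 341 in time after EPS against 443 and 674, and 34 and 73 in the difference of effects against 181 and 180. Without the filter these counts were 1085 and 1445, 1074 and 1172, 1234 and 1877, 1397 and 2543, and 1861 and 2117, in the same order. Median centring turned the split in time after EPS to 737 higher and 414 lower, and that in time without EPS to 470 and 388, and gave 161 and 74 for EPS at 5 h. Centring on the median of all genes gave 545 and 555 in time after EPS, and quantile normalization 530 and 518.

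Signal over background limits the dim chains most. Of the 40 chains, 7 had a brightest probe that was not well above background on any array, and 17 of the 30 chains measured in EPS at 5 h had a mean level under 0, where spot error is larger.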

Other observations

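EPS differences with opposite signs at 5 h and at 0 min were found for 13 of the 30 chains measured on all arrays. Beyond the 95th percentile of the spot error over all replicated probes at both times, there were 0 such chains. A limit taken within classes of level (under -3, -3 to 0, and 0 and over) was tried after that count was seen, and it set apart 3 chains. No share over all genes is given beside the 13 or the 3, so neither count can be read as particular to the chains. Col14a1 was at -0.30 at 5 h and 0.15 at 0 min, Col3a1 at -0.34 and 0.16, and Col5a3 at 0.24 and -0.24. The sign of Col3a1 at 0 min was lost under quantile normalization, and the difference between times was not tested for any of them.

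RefSeq gives collagen symbols to 3 further genes that the array files list under other names. Emid2 (Col26a1 in RefSeq) was well above background on all 4 arrays, with levels of -5.10 at 5 h after EPS, -5.51 at 5 h without EPS, -4.62 at 0 min after EPS and -4.76 at 0 min without EPS. Gm7455 (Col6a5) and Dvwa (Col6a4) reached that mark on no array.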
